A study of Mus musculus with 8 samples.

Results

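The tight junction genes described here are 9 genes of the epithelial barrier, namely the claudins Cldn1, Cldn3, Cldn4, Cldn7 and Cldn18, the MARVEL-domain proteins Ocln and Marveld2, the junctional adhesion molecule F11r and the scaffold Tjp1. They were taken by symbol from the 55416 genes in the count files through their Ensembl identifiers. All 9 were found, and all 9 were among the 18560 genes that passed the filter on low counts.

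The data are RNA-seq counts from the lungs of female C57BL/6J mice, 6 to 8 weeks old, in a model of endotoxin shock. The control group (mice 1, 2 and 4) received the solvent DMSO into a vein and then saline into the peritoneal cavity. The LPS group (mice 1, 6 and 7) received bacterial lipopolysaccharide at 35 mg/kg, and for it the methods name no solvent injection. The dual-treatment group (mice 2 and 5) received YW3-56, an inhibitor of the protein arginine deiminases, at 10 mg/kg in DMSO shortly before the same dose of LPS. Lung tissue from 1 side was collected about 24 h later in each case. The mouse numbers name animals within a group and do not pair animals across groups.

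Tight junctions seal the space between neighbouring epithelial cells. Claudins form the strands that set which ions and molecules can pass, occludin and tricellulin organise the strands and their meeting points at cell corners, junctional adhesion molecules help cells to set up polarity, and ZO proteins such as Tjp1 tie the strands to the actin skeleton. In the lung this seal keeps fluid out of the air spaces, with Cldn18, Cldn3 and Cldn4 as the best known claudins of the alveolar epithelium.

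Each library held between 19061949 and 20908608 counts. Levels are given as CPM, the count of a gene relative to the size of its library, after scaling by TMM, a method that sets libraries to a common level through the bulk of their genes. The TMM factors were 1.07, 1.08 and 1.06 in control mice, 0.81, 0.894 and 0.93 in LPS mice, and 1.11 and 1.09 in dual-treated mice, so the choice of scaling bears on the LPS group most. Differences are log2 fold changes with their standard error (SE), tested with the quasi-likelihood (QL) test of edgeR. A gene is said to have risen or fallen where its QL p-value, adjusted by Benjamini and Hochberg over the 18560 tested genes, was under 0.05. The lung origin of the libraries was plain from Sftpc of alveolar type 2 cells, which was at 8314 CPM or more in each of the 8 mice, Ager of alveolar type 1 cells, at 978 CPM or more, and the airway gene Scgb1a1, at 22654 CPM or more.

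In control lungs the order of the 9 transcripts, as CPM per kb of exon, was led by Cldn3 with a mean of 198 ± 23.5 (SD, n = 3). Cldn18 followed at 109 ± 13.5, F11r at 76.5 ± 3.99 and Tjp1 at 45.2 ± 2.25. Cldn7 stood at 21.9 ± 2.30, Ocln at 6.01 ± 0.302, Marveld2 at 4.45 ± 0.380, Cldn4 at 2.82 ± 0.528 and Cldn1 at 1.63 ± 0.221. No 2 neighbours in this order overlapped across the 3 control mice. The least counted member was Cldn4, with 79 counts in dual-treated mouse 5, its lowest library, while Cldn18 reached 11341 counts in control mouse 1.

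On the GRCm39 genome the members lie on 7 chromosomes, with Cldn4 and Cldn3 as neighbours on chromosome 5 and Ocln and Marveld2 as neighbours on chromosome 13. Cldn4 (ENSMUSG00000047501) spans 134973973 to 134975788 on the minus strand, and Cldn3 (ENSMUSG00000070473) spans 135015068 to 135016326 on the plus strand, 39279 bases away. Ocln (ENSMUSG00000021638) spans 100630334 to 100689535 and Marveld2 (ENSMUSG00000021636) spans 100732464 to 100753489, both on the minus strand and 42928 bases apart. The annotation holds 0 protein-coding genes between the members of either pair. Cldn1 (ENSMUSG00000022512) is on chromosome 16, Cldn7 (ENSMUSG00000018569) on 11, Cldn18 (ENSMUSG00000032473) on 9, F11r (ENSMUSG00000038235) on 1 and Tjp1 (ENSMUSG00000030516) on 7.

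The comparison of LPS with control lungs asks which of these transcripts differed a day after endotoxin. Control mice received DMSO into a vein, and the methods name no such injection for the LPS group. The effect of LPS and that of this difference in solvent injection therefore cannot be told apart here. Cldn4, Cldn1 and Cldn7 rose 3.90-fold, 2.73-fold and 2.21-fold, F11r rose 1.28-fold, and Tjp1 fell by 0.80 on the log2 scale. Cldn3 and Cldn18, the 2 most abundant members per kb, did not pass the test, nor did Ocln and Marveld2. The members thus counted 4 higher and 1 lower of 9, where over all tested genes 32.6% were higher and 33.9% were lower. Their median log2 fold change was 0.30, against -0.01 over all tested genes.

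Cldn4, a sealing claudin that is also a receptor for a clostridial toxin, was measured at 5.08, 6.10 and 4.18 CPM in control mice 1, 2 and 4. In LPS mice 1, 6 and 7 it was at 23.1, 16 and 20.8 CPM, and in dual-treated mice 2 and 5 at 8.93 and 3.47 CPM. Every LPS mouse lay above every mouse of the other groups, while the dual-treated mice lay on either side of the control range. The LPS difference from control was 1.96 (SE 0.320, QL adjusted p = 0.000466).

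Cldn1, the claudin best known for the water barrier of the skin, was at 8.65, 8.35 and 6.66 CPM in control mice and at 23.8, 22.6 and 18.1 CPM in LPS mice. The dual-treated mice had 9.97 and 6.36 CPM. The 3 LPS mice were again the highest of the 8, and the dual-treated pair spanned the control values. Cldn1 rose by 1.45 (SE 0.202, QL adjusted p = 0.000171).

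Cldn7, which binds the adhesion molecule Epcam at the basolateral membrane, was at 40.9, 47.7 and 50.3 CPM in control mice, at 129, 84.8 and 94.2 CPM in LPS mice and at 27.5 and 31.0 CPM in dual-treated mice. The groups did not overlap, with LPS highest and dual treatment lowest. The LPS difference from control was 1.15 (SE 0.157, QL adjusted p = 0.000149). Cldn7 overlaps Elp5, a gene on the opposite strand that serves in tRNA modification, over 543 bases, and the strand setting of the counting is not given in the sources used here, so reads of the shared stretch cannot be assigned with certainty. Elp5 itself was at 27.1, 30.3 and 29.4 CPM in control mice, 34.1, 33.6 and 26.8 in LPS mice, and 33.9 and 33.6 in dual-treated mice, and it passed the test in none of the 3 comparisons (LPS against control 0.12, QL adjusted p = 0.370).

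Cldn3, a sealing claudin of many epithelia, was at 225, 243 and 282 CPM in control mice, 267, 216 and 227 in LPS mice and 208 and 198 in dual-treated mice. The control and LPS ranges overlapped, and the difference of -0.08 (95% CI -0.35 to 0.19, QL adjusted p = 0.588) did not pass the test, whereas its neighbour Cldn4 did. Cldn18, whose lung form is a main claudin of the alveolar epithelium, was at 554, 437 and 472 CPM in control mice, 587, 423 and 310.3 in LPS mice, and 350.3 and 288 in dual-treated mice. LPS mouse 1 was the highest and LPS mouse 7 the lowest of the 6 mice outside the dual treatment, and the difference was -0.15 (95% CI -0.62 to 0.33, QL adjusted p = 0.557).

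Of the MARVEL proteins, Ocln (occludin) was at 55.9, 59.4 and 53.8 CPM in control mice, 61.4, 43.9 and 57.2 in LPS mice, and 37.3 and 46.2 in dual-treated mice. The LPS range enclosed the control range, with a difference of -0.06 (95% CI -0.36 to 0.25, QL adjusted p = 0.729). Marveld2 (tricellulin), which marks the corners where cells meet, was at 16.2, 13.7 and 15.3 CPM in control mice, 19.0, 18.6 and 18.2 in LPS mice, and 8.93 and 13.1 in dual-treated mice. Its 3 LPS mice lay above the control mice by a small margin, and the difference of 0.30 (SE 0.156, QL adjusted p = 0.115) did not pass the test.

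F11r, the junctional adhesion molecule JAM-A that is also found on platelets, endothelium and leukocytes, was at 280.4, 254 and 260.3 CPM in control mice and 409, 325 and 285 in LPS mice. The dual-treated mice had 234 and 232 CPM. LPS mouse 1 stood well above the other animals, while LPS mouse 7 was barely above the highest control mouse. The difference from control was 0.36 (SE 0.134, QL adjusted p = 0.0375). That call was lost without LPS mouse 1 (0.21, QL adjusted p = 0.111), without control mouse 1, 2 or 4 (0.40, 0.32 and 0.34, QL adjusted p = 0.0587, 0.118 and 0.0869), with upper-quartile factors (0.26, QL adjusted p = 0.0860), and when libraries were scaled by their totals alone (0.06, QL adjusted p = 0.629).

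Tjp1, the scaffold ZO-1, was the member that went down. It was at 379, 349.6 and 346 CPM in control mice, 219, 182 and 218 in LPS mice, and 197 and 271 in dual-treated mice. Control mice were the 3 highest of the 8, and dual-treated mouse 2 lay inside the LPS range. The LPS difference from control was -0.80 (SE 0.137, QL adjusted p = 0.000635).

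**Figure D1:**
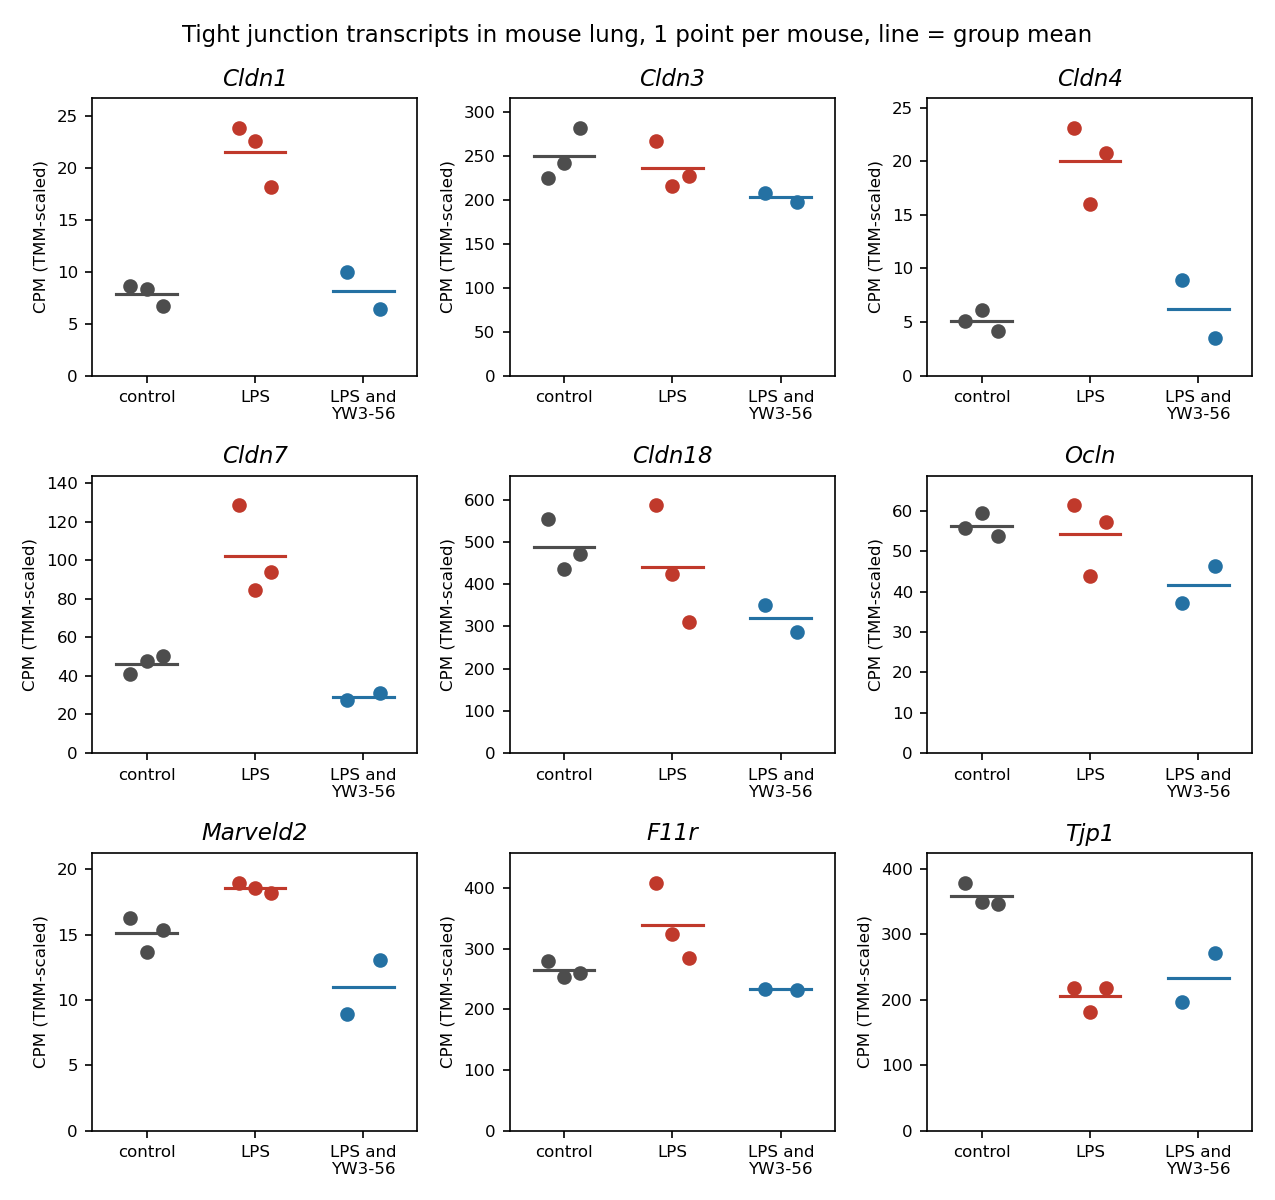
TMM-scaled CPM (linear axis from 0) of the 9 tight junction genes in control, LPS and dual-treated lungs, with 1 point per mouse and a line at each group mean. The LPS mice stand apart at the top for Cldn1, Cldn4 and Cldn7, while for Tjp1 the control mice are highest, at 346 to 379 CPM.

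Scaling shifted all members, and the calls it changed were those of smaller size. With libraries scaled by their totals alone, the median of all tested genes shifted by -0.28 in LPS against control, and Cldn3, Cldn18 and Ocln then counted as lower, at -0.37, -0.45 and -0.35, while F11r no longer passed. The directions of Cldn1, Cldn4, Cldn7 and Tjp1 in this comparison were the same under each scaling that was run.

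A ratio within a library does not depend on the scaling. Summed per kb over the 5 claudins, Cldn1, Cldn4 and Cldn7 together made up 7.33%, 8.68% and 7.69% in control mice 1, 2 and 4, and 18.6%, 16.8% and 19.3% in LPS mice 1, 6 and 7. In dual-treated mice 2 and 5 they made up 7.59% and 7.46%. The LPS mice were thus apart from the rest. The sum of both dual-treated mice fell within the control range, but in mouse 2 its parts did not. Cldn7 was there at 4.94%, Cldn4 at 1.87% and Cldn1 at 0.781%, where control mice had 5.93% to 7.09%, 0.644% to 1.05% and 0.384% to 0.546%. In mouse 5 Cldn7 and Cldn4 lay within these ranges, and Cldn1 was barely above, at 0.547%. These 3 claudins were put together after their values were seen, so no test is given. Cldn7 carried most of the difference, with 12.5% to 14.4% of the sum in LPS mice, while Cldn3 held over 50.2% in each of the 8 mice. In the per kb order of LPS lungs, Cldn7 at 48.5 ± 10.9 (SD, n = 3) lay above Tjp1 at 26.0 ± 2.67 and Cldn4 at 11 ± 1.99 above Ocln at 5.77 ± 0.974, each without overlap and each the opposite of the control order, while Cldn18 and F11r overlapped at 98.8 ± 31.2 and 98.2 ± 18.2.

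**Figure D2:**
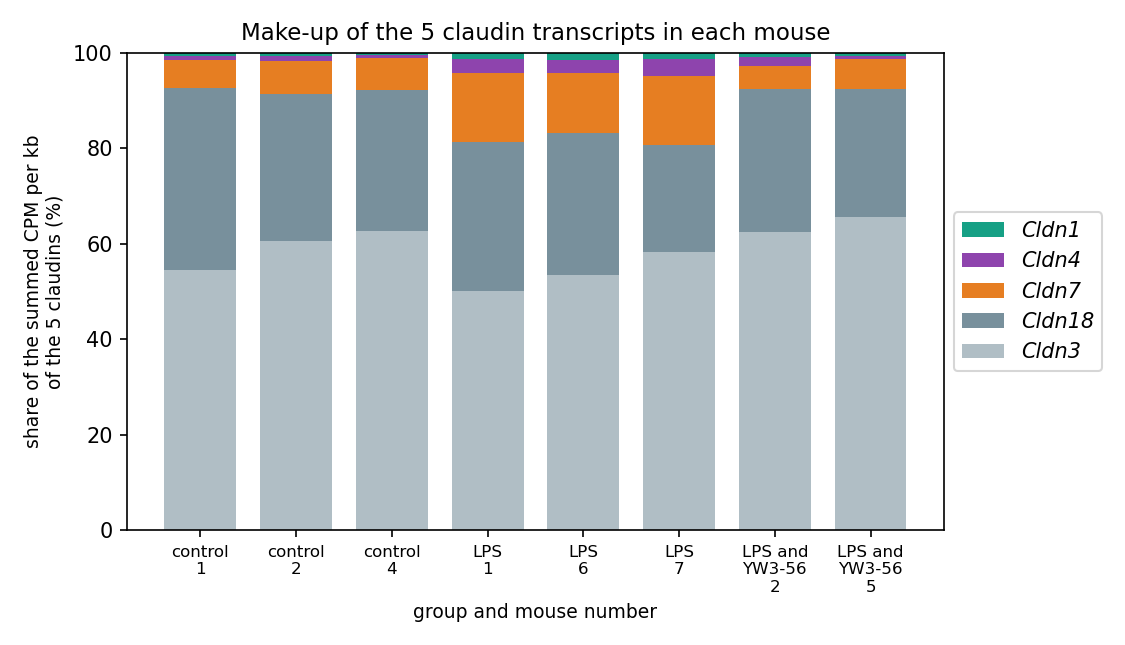
Share (%) of each of the 5 claudins in their summed CPM per kb, as 1 stacked bar per mouse. Cldn1, Cldn4 and Cldn7 at the top of the bars take 16.8% to 19.3% in LPS mice and 7.33% to 8.68% in the other mice.

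These are whole-tissue libraries, in which fewer cells of a type and less RNA per cell cannot be told apart, so marker lists of the cell types were summed in each mouse. The 8 airway markers, led by the secretory protein gene Scgb1a1, summed to 32176, 40865 and 37711 CPM in control mice, 69805, 60758 and 58939 in LPS mice, and 24635 and 27081 in dual-treated mice, with 5 higher and 2 lower in LPS against control. Scgb1a1 carries most of this sum, at 65253 of the 69805 CPM in LPS mouse 1. Cyp2f2 (-0.77) and Tppp3 (-0.58) were the lower genes in LPS. The order of the groups in the sum is that seen for Cldn7. In dual treatment against control, however, Scgb1a1 did not pass (-0.49, QL adjusted p = 0.145). There 3 of the 8 were lower, beside 7.02% of all tested genes. The part of airway cells in the claudin values was not tested. The 8 general epithelial markers other than Cldn4, led by Krt7, summed to 1858, 1822 and 1916 CPM in control mice, 1414, 1169 and 1098 in LPS mice, and 1499.5 and 1969 in dual-treated mice. Their sum was lower in LPS, but the genes were split, with 2 higher, among them Epcam, and 6 lower. Alveolar type 1 markers other than Cldn18, led by Ager, summed to 5179, 4882 and 5000.1 CPM in control mice, 3841, 3227 and 2280 in LPS mice, and 2671 and 3627 in dual-treated mice. Ager carries much of this sum, and the list had no common course. Of the 7 genes, 1 was higher and 4 were lower in LPS against control (median -1.54), where Ager did not pass, and 4 were higher and 2 lower in dual treatment against LPS (median 1.01), where Ager (-0.68, QL adjusted p = 0.0439) and Pdpn (-1.18, QL adjusted p = 0.000584) were lower. Pdpn was also the higher gene in LPS (0.94, QL adjusted p = 0.000727), and Hopx passed in neither comparison. Over all tested genes 32.6% were higher and 33.9% lower in LPS against control, and 31.7% and 27.4% in dual treatment against LPS. For the 9 alveolar type 2 markers, led by Sftpc, the sums were 39101, 32858 and 41082 CPM in control mice, 29439, 21137 and 17318 in LPS mice, and 21746 and 32102 in dual-treated mice. Of these, 1 was higher and 7 were lower in LPS against control, and 4 were higher and 0 lower in dual treatment against LPS. Both alveolar sums were lowest in LPS mouse 7, the LPS mouse with the lowest Cldn18. The dual-treated mice went the other way. Mouse 5 had the lowest Cldn18 of the 8 mice, at 288 CPM against 350.3 in mouse 2, but the higher alveolar sums of the pair. The part of these cells in the Cldn18 values was not tested.

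LPS mice 6 and 7 also held transcripts of stratified epithelium and skeletal muscle. The 18 squamous markers, led by Krt13, summed to 986 and 2503 CPM in these mice but to 5.63 CPM in LPS mouse 1, 27.9, 37.1 and 31.8 in control mice, and 21.6 and 35.3 in dual-treated mice. The 10 skeletal muscle markers, led by Acta1, summed to 499 and 1282 CPM in the same mice, 17.5 in LPS mouse 1, 10.5, 19.7 and 14.7 in control mice, and 5.67 and 7.98 in dual-treated mice. LPS mouse 1, without that signal, had the highest Cldn1, Cldn4 and Cldn7 of the 8 mice. With LPS mice 6 and 7 left out together, the differences from control were 2.18 for Cldn4, 1.60 for Cldn1, 1.48 for Cldn7, 0.63 for F11r and -0.71 for Tjp1, and the QL adjusted p of each was 0.0154 or lower. LPS mouse 1 is then the only animal of its group, and its spread is assumed to be that of the other groups.

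F11r and Tjp1 are also made by blood and vessel cells. Platelet markers (7, led by Itga2b) summed to 95, 65.4 and 138 CPM in control mice, 249, 171 and 139 in LPS mice, and 78.9 and 142 in dual-treated mice, with 4 higher and 0 lower in LPS against control. The list was highest in LPS mouse 1, as F11r was, but other mice did not share this order. Dual-treated mice 2 and 5 differed in the platelet sum and had F11r at 234 and 232 CPM. Among control mice the sum was highest in mouse 4 and F11r in mouse 1. Endothelial markers (8, led by Cdh5) summed to 3167, 3551 and 3643 CPM in control mice, 2149, 1793 and 1764 in LPS mice, and 3136 and 3399 in dual-treated mice, with 6 lower and 2 not passing in LPS against control. Cdh5 itself did not pass (0.17, QL adjusted p = 0.382), at 589, 659 and 736 CPM in control mice, 937, 656 and 641 in LPS mice, and 509.5 and 589.6 in dual-treated mice. Neutrophil markers (8, led by S100a9) were at 221, 122 and 129.8 CPM in control mice, 2199, 2990 and 1859 in LPS mice, and 1720 and 2391 in dual-treated mice, with 8 higher in LPS against control. Macrophage markers (8, led by Chil3) were at 887, 627 and 841 CPM in control mice, 901, 986 and 512 in LPS mice, and 1300.4 and 1973 in dual-treated mice, and mesothelial markers (6, led by Msln) at 823, 748 and 803 CPM, then 527, 465 and 398, then 648 and 938. In LPS against control 0 macrophage markers were higher and 3 lower, and 0 mesothelial markers were higher and 5 lower. The counts of these lists are to be read beside the shares of all tested genes in LPS against control, 32.6% higher and 33.9% lower. The part of these cells in the F11r and Tjp1 values was not tested. No marker of any list was at 0 in all 8 mice.

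The comparison of dual-treated with control lungs asks what remained different when YW3-56 preceded LPS. Tjp1 and Cldn7 fell by 0.62 and 0.66 on the log2 scale, and no member rose. Members with a lower level were thus 2 of 9, where over all tested genes 7.02% were lower. In the other direction 0 of 9 were higher, by the QL test, at an unadjusted p under 0.05 and by DESeq2 alike, where over all tested genes 9.13% were higher. The median of the members was -0.43, against 0.00 over all tested genes.

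Tjp1 differed from control by -0.62 (SE 0.154, QL adjusted p = 0.0256) and Cldn7 by -0.66 (SE 0.179, QL adjusted p = 0.0341), each with both dual-treated mice under all 3 control mice. Both calls rest on few animals. Tjp1 did not pass without dual-treated mouse 2 (-0.43, QL adjusted p = 0.126) or without control mouse 1, 2 or 4 (-0.58, -0.64 and -0.67, QL adjusted p = 0.0811, 0.0702 and 0.0505). Cldn7 did not pass without dual-treated mouse 2 (-0.61, QL adjusted p = 0.150) or without control mouse 2 or 4 (-0.64 and -0.63, QL adjusted p = 0.0956 and 0.0762).

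The other claudins of the set did not pass here. Cldn4 was at 0.27 (95% CI -0.52 to 1.07, QL adjusted p = 0.654) and Cldn1 at 0.05 (95% CI -0.46 to 0.56, QL adjusted p = 0.911), with dual-treated mouse 2 above the control mice for both and mouse 5 below them. Cldn18 was at -0.61 (SE 0.241, QL adjusted p = 0.117) and Cldn3 at -0.30 (SE 0.137, QL adjusted p = 0.173). In both, the 2 dual-treated mice lay below the 3 control mice. Similarly, Ocln stood at -0.43 (SE 0.154, QL adjusted p = 0.0875), Marveld2 at -0.45 (SE 0.177, QL adjusted p = 0.114) and F11r at -0.19 (SE 0.150, QL adjusted p = 0.449), again with each dual-treated mouse under the control mice. DESeq2 called Cldn18 (-0.63, DESeq2 adjusted p = 0.0307) and Ocln (-0.45, DESeq2 adjusted p = 0.0477) lower as well. With the 2 compared groups only both passed (-0.60 and -0.42, QL adjusted p = 0.0244 and 0.0373), and with no filter on low counts Cldn18 did (-0.62, QL adjusted p = 0.0193). Without dual-treated mouse 5, Ocln (-0.63, QL adjusted p = 0.0406) and Marveld2 (-0.79, QL adjusted p = 0.0212) also passed, whereas without dual-treated mouse 2 they were at -0.32 and -0.24 and did not pass.

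The comparison of dual-treated with LPS lungs asks what differed when YW3-56 preceded the same dose of LPS, and it is also the test of whether the other 2 differences, which share the control mice, were unequal. Cldn7, Cldn4 and Cldn1 fell, to levels 3.50, 3.23 and 2.63 times lower than in LPS mice. Marveld2 and F11r fell as well, while Tjp1 did not pass the test. As the methods name no DMSO for the LPS group, YW3-56 and its solvent cannot be told apart here. Members with a lower level were 5 of 9, where over all tested genes 27.4% were lower. In the other direction 0 of 9 were higher, by the QL test, at an unadjusted p under 0.05 and by DESeq2, where over all tested genes 31.7% were higher. The median of the members was -0.54, against 0.06 over all tested genes.

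Cldn7 had the largest difference of the 9, at -1.81 (SE 0.185, QL adjusted p = 4.63e-05). Cldn4 followed at -1.69 (SE 0.364, QL adjusted p = 0.00322) and Cldn1 at -1.40 (SE 0.231, QL adjusted p = 0.000712). For these 3 genes both dual-treated mice were below all LPS mice, and the calls held without any 1 mouse, with the log2 fold change of Cldn4 ranging from -2.55 to -1.18 and that of Cldn1 from -1.78 to -1.13. With LPS mouse 1 as the only LPS animal the differences were -2.14, -1.91 and -1.55 for Cldn7, Cldn4 and Cldn1.

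Marveld2 was at -0.75 (SE 0.178, QL adjusted p = 0.00526) and F11r at -0.54 (SE 0.152, QL adjusted p = 0.0120), with no overlap between the groups. With libraries scaled by their totals, which shifted the median of all tested genes by 0.32 in this comparison, neither call held (-0.43 and -0.21, QL adjusted p = 0.0644 and 0.156). Cldn18 stood at -0.47 (SE 0.240, QL adjusted p = 0.120), and ranged from -0.67 to -0.21 leaving out 1 mouse. It passed without LPS mouse 7 (-0.67, QL adjusted p = 0.0144) and with LPS mouse 1 alone (-0.89, QL adjusted p = 0.00563), while without LPS mouse 1, at -0.21, it did not. Ocln stood at -0.38 (SE 0.154, QL adjusted p = 0.0595), and ranged from -0.56 to -0.25 leaving out 1 mouse, the weaker end being without dual-treated mouse 2. It passed without LPS mouse 6 (-0.51, QL adjusted p = 0.00908), without dual-treated mouse 5 (-0.56, QL adjusted p = 0.0284), with LPS mouse 1 alone (-0.56, QL adjusted p = 0.0170), with RLE factors (-0.43, QL adjusted p = 0.0341) and by DESeq2 (-0.42, DESeq2 adjusted p = 0.0348). Cldn3 differed by -0.22 (95% CI -0.53 to 0.08, QL adjusted p = 0.186). Tjp1 differed by 0.18 (95% CI -0.16 to 0.52, QL adjusted p = 0.323), turned to -0.087 without dual-treated mouse 5, and counted as higher when libraries were scaled by their totals (0.51, QL adjusted p = 0.0135).

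**Figure D3:**
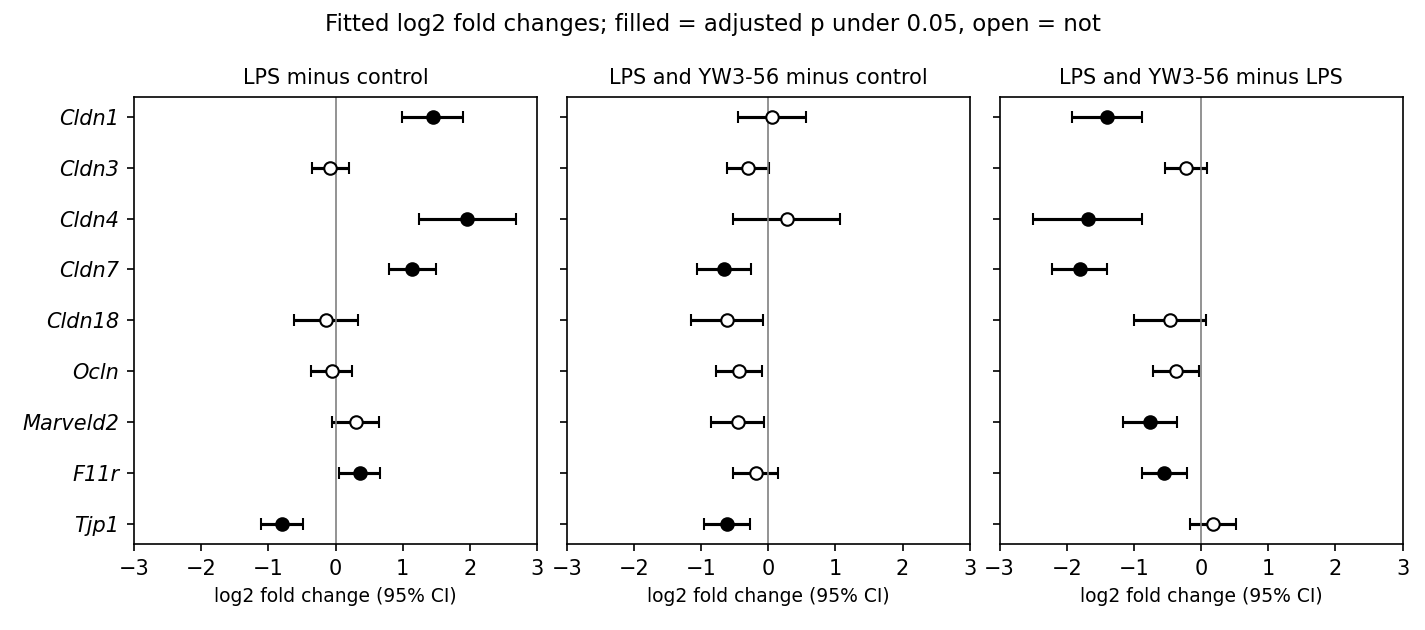
Log2 fold changes of the 9 genes in the 3 comparisons (horizontal axis) with 95% confidence intervals, filled where the adjusted p of the QL test was under 0.05. Cldn1, Cldn4 and Cldn7 lie to the right in LPS against control (1.15 to 1.96) and to the left in dual treatment against LPS (-1.81 to -1.40), while Tjp1 lies to the left against control in both treated groups (-0.80 and -0.62).

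The counts of the junction lists below are to be read beside the shares of all tested genes. These were 32.6% higher and 33.9% lower in LPS against control, 9.13% and 7.02% in dual treatment against control, and 31.7% and 27.4% in dual treatment against LPS.

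Other claudins moved in both directions. The annotation names 32 besides the 5 members, and 8 of them had counts enough to be tested. In LPS against control 1 was higher and 3 were lower, with a median of 0.04. Cldn2, which forms a pore for small cations and water, rose by 2.04 (SE 0.416, QL adjusted p = 0.00186), from 2.00, 1.22 and 1.06 CPM in control mice to 3.67, 5.08 and 8.81 in LPS mice. It was highest in LPS mice 6 and 7, those with squamous markers, while LPS mouse 1 also lay above the control mice. The dual-treated mice had 2.27 and 1.18 CPM of Cldn2, a difference from LPS of -1.76 (SE 0.471, QL adjusted p = 0.00992). Cldn15, a pore-forming claudin best known from the gut, fell by 3.11 on the log2 scale (SE 0.203, QL adjusted p = 2.07e-06), from 46.7, 45.4 and 46.0 CPM to 5.57, 5.02 and 5.41. In dual-treated mice Cldn15 was at 24.2 and 43.2 CPM, and it was 2.66 above LPS (SE 0.214, QL adjusted p = 1.3e-05). Cldn34c1 fell in LPS (-2.26, QL adjusted p = 0.00857) at no more than 2.11 CPM in any mouse and was 2.11 higher on the log2 scale in dual treatment than in LPS (QL adjusted p = 0.0196). Cldn8, at 1.93 CPM or less, was 1.54 higher in dual treatment than in LPS (QL adjusted p = 0.0457). These calls at low level were fragile. In dual treatment against LPS that of Cldn34c1 was lost without LPS mouse 7 or dual-treated mouse 5. That of Cldn8 was lost without LPS mouse 1 or 7, without either dual-treated mouse, with RLE factors and with the compared groups only. With LPS mouse 1 as the only LPS animal, Cldn34c1 passed in neither comparison. With all mice kept, 3 of the 8 other claudins were higher and 1 was lower in dual treatment than in LPS, with a median of -0.02. Against control, 0 of the 8 passed in dual-treated lungs in either direction, by the QL test, at an unadjusted p under 0.05 or by DESeq2.

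Further membrane proteins of the junction (11 genes, among them other adhesion molecules and the angulins of cell corners) counted 1 higher and 3 lower in LPS against control, with a median of 0.09. In dual treatment 0 were higher and 3 lower than in control (median -0.42), and 1 was higher and 5 were lower than in LPS (median -0.44). Lsr, the angulin that brings tricellulin to cell corners, was at 29.5, 25.9 and 26.6 CPM in control mice, 38.3, 33.6 and 29.6 in LPS mice, and 14.6 and 19.0 in dual-treated mice. The dual-treated mice were the 2 lowest of the 8, and Lsr was 0.70 below control on the log2 scale (-0.70, SE 0.157, QL adjusted p = 0.0164), a call that was lost without control mouse 1 or dual-treated mouse 2.

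Plaque and polarity proteins (22 genes) counted 7 higher and 11 lower in LPS against control (median -0.31). In dual treatment 0 were higher and 5 lower than in control (median -0.37), and 7 were higher and 9 lower than in LPS (median -0.09). Pard6b, a core protein of the PAR polarity complex, was at 131, 117 and 119 CPM in control mice, 609, 445 and 420.5 in LPS mice, and 80.7 and 96.4 in dual-treated mice. It rose by 2.00 in LPS (SE 0.156, QL adjusted p = 4.88e-06) and was at -2.47 in dual treatment against LPS (SE 0.186, QL adjusted p = 9.77e-06), whereas its paralog Pard6a was 1.54 higher in dual treatment than in LPS (SE 0.225, QL adjusted p = 0.000339). Pals1, a scaffold of the Crumbs complex, was at 144, 133 and 131 CPM in control mice, 65.3, 64.6 and 58.9 in LPS mice, and 59.5 and 63.2 in dual-treated mice. Thus both treated groups lay below control for Pals1, as they did for Tjp1, with -1.15 in dual treatment against control (SE 0.100, QL adjusted p = 0.000145). The scaffold Magi1 was also lower in dual treatment than in control (-0.70, SE 0.135, QL adjusted p = 0.00815), though not without dual-treated mouse 2.

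Tjp3 (ZO-3), a paralog of Tjp1, was looked at after its values were seen. It was at 39.7, 41.5 and 45.0 CPM in control mice, 84.5, 87.4 and 90.5 in LPS mice, and 40.2 and 42.3 in dual-treated mice. The LPS mice were the 3 highest of the 8. Tjp3 rose by 1.06 in LPS (SE 0.0854, QL adjusted p = 5.97e-06), and dual treatment against LPS gave -1.08 (QL adjusted p = 2.3e-05).

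Regulators of epithelial junctions (14 genes) counted 5 higher and 6 lower in LPS against control, with a median of 0.01. In dual treatment 0 were higher and 1 lower than in control (median -0.22), and 5 were higher and 5 lower than in LPS (median -0.34). Elf3, an epithelial transcription factor of the ETS family, was at 31.8, 29.7 and 31.6 CPM in control mice, 168, 139 and 159 in LPS mice, and 29.7 and 25.2 in dual-treated mice. It rose by 2.32 (SE 0.108, QL adjusted p = 5.54e-07) and was at -2.50 in dual treatment against LPS (SE 0.127, QL adjusted p = 2.4e-06). The grainyhead factors, which control junction genes in epithelia, were split. Grhl3 did not pass in LPS against control (2.30, QL adjusted p = 0.0810), at 0, 1.44 and 3.01 CPM in LPS mice 1, 6 and 7. Grhl1 rose by 1.82 in LPS (SE 0.233, QL adjusted p = 9.8e-05), from 5.62, 5.02 and 5.60 CPM to 18.0, 14.8 and 24.8, and Grhl2 fell by 1.67 (SE 0.121, QL adjusted p = 3.35e-06), from 26.5, 24.9 and 24.2 CPM to 7.53, 7.39 and 8.81. Snai1, a repressor of E-cadherin, fell by 1.75 (SE 0.198, QL adjusted p = 4.42e-05).

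Adherens junction and desmosome genes (15) counted 6 higher and 6 lower in LPS against control, with a median of 0.08. In dual treatment 0 were higher and 3 lower than in control (median -0.36), and 5 were higher and 7 lower than in LPS (median -0.28). For the counts of 0 higher in these 4 lists, the counts at an unadjusted p under 0.05 and by DESeq2 were also 0. Cdh1, which encodes E-cadherin, was at 296, 297 and 301 CPM in control mice, 953, 721 and 782 in LPS mice, and 203 and 222 in dual-treated mice, with no overlap among the 3 groups. Its difference between dual treatment and LPS was -1.95 (SE 0.146, QL adjusted p = 9.79e-06). Jup, the plakoglobin shared by adherens junctions and desmosomes, fell by 2.05 in LPS (SE 0.167, QL adjusted p = 6.19e-06) and was 1.60 higher in dual treatment than in LPS (SE 0.177, QL adjusted p = 6.91e-05). The adhesion molecules Nectin1 and Nectin3 were lower in dual treatment than in control (-0.92 and -0.91, QL adjusted p = 0.00869 and 0.0146), and Perp, a membrane protein of desmosomes, was at -1.87 in dual treatment against LPS (SE 0.227, QL adjusted p = 0.000115). Perp was at 45.7, 42.9 and 40.4 CPM in control mice, 85.5, 123 and 161 in LPS mice, and 33.5 and 33.9 in dual-treated mice, so it was highest in LPS mice 6 and 7, those with squamous markers, while LPS mouse 1 also lay above the control mice.

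Dsc2, a desmosomal cadherin, had a fitted difference of 2.43 in LPS against control (SE 0.949, QL adjusted p = 0.0452) and of -3.39 in dual treatment against LPS (SE 1.19, QL adjusted p = 0.0335). It was at 4.85 and 12.6 CPM in LPS mice 6 and 7, those with squamous markers, and at 0.237 CPM in LPS mouse 1, under the lowest control mouse at 0.440 CPM. Without LPS mice 6 and 7 the values were -2.17 (QL adjusted p = 0.0869) and 1.20 (QL adjusted p = 0.345). The first call was also lost by DESeq2, with library totals or upper-quartile factors, and without any 1 mouse except LPS mouse 1. The second was lost without LPS mouse 7, without either dual-treated mouse and with the compared groups only. Epcam, the partner of Cldn7, was looked at after its values were seen. It was at 70.4, 72.7 and 68.6 CPM in control mice, 231, 193 and 193 in LPS mice, and 71.0 and 51.7 in dual-treated mice, and it rose by 1.54 in LPS (SE 0.132, QL adjusted p = 8.39e-06).

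Genes with the most similar course were sought for the members at either end of the LPS comparison. Over the 8 libraries, which fall into 3 groups, log2 CPM of Cldn4 was most alike to that of Rnf103, a ubiquitin ligase of the endoplasmic reticulum (Pearson r = 0.992), Barx2, a homeobox factor (0.990), and Icos, a costimulatory receptor of T cells (0.988). Such likeness was common, since 1876 of the 15576 genes compared had r over 0.9 with Cldn4. For Tjp1 the most alike were the kinase gene Map3k5 and the RNA-binding protein gene Samd4 (each 0.994) and the cytoskeletal linker gene Macf1 (0.988), and 611 genes had r over 0.9.

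Cldn1, Cldn4 and Cldn7 all rose in LPS against control and were all lower in dual treatment than in LPS. In dual treatment against control, by contrast, Cldn7 was lower and the others did not pass. The 250 bases before the start of the canonical GENCODE transcript of each member were searched on both strands for the TATA box TATAAA, the GC box GGGCGG, the AP-1 motif TGANTCA, the grainyhead motif AACNGGTT, the STAT motif TTCNNNGAA and the kappaB consensus. Over the 21770 windows of protein-coding genes the shares holding them were 11.9%, 36.3%, 6.17%, 1.79%, 7.70% and 7.62%. A GC box was found in 7 of the 9 members (all but Cldn7 and Cldn18) and an AP-1 motif in 2, Cldn4 with 2 matches and F11r with 1. Cldn7 held 1 STAT match, and Marveld2 held the TATA letters once, at -223 to -218 from the start. In the window of Cldn3, 165 of the 250 bases are exon of Wbscr25. No member held the grainyhead or kappaB letters in this window. The start used lies inside the span of the gene for Cldn7, Cldn18, Tjp1, Ocln and Marveld2, which have other transcripts that begin further upstream, and the window of Cldn7 runs from 69855972 to 69856221 in a gene that begins at 69852648. A match is a run of letters and does not show that a factor binds there. The windows of Cldn1 (chr16:26190597-26190846, minus strand) and Cldn4 (chr5:134975789-134976038, minus strand) are shown in GRCm39 because they belong to 2 of the 3 claudins that rose and hold no annotated exon, with the matches in capitals; CCGCCC is the GC box read on the other strand. The window of Cldn7 is not shown because 221 of its 250 bases are exon in another Cldn7 transcript.
Cldn1: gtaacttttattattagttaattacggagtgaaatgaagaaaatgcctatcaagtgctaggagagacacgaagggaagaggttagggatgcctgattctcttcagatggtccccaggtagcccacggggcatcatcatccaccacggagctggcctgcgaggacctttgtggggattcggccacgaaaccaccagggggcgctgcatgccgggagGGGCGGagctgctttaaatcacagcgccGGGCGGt
Cldn4: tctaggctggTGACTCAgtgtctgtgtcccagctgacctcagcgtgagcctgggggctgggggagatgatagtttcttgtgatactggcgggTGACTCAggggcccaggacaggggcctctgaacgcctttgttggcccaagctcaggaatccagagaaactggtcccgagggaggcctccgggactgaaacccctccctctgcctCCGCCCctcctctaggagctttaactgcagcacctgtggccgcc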

How the data were processed

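Per the submitters' processing notes, reads were checked with FastQC 0.11.9, trimmed with Trim Galore, aligned to GRCm39 with HISAT2 2.2.1 and counted with featureCounts 2.0.1. The authors deposited raw counts per gene for each mouse, without normalization. The annotation release, the strand setting and the treatment of reads that map to several places are not given in the sources used here, so overlapping and paralogous genes are uncertain. Of the 55416 identifiers, 54749 matched GENCODE M39, which gave symbols, positions and exon lengths; the others held 0.0533% of counts.

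Tests were run with edgeR 4.0.16 in R 4.3.3. Libraries were scaled by TMM, genes with low counts were removed by filterByExpr within groups, and 1 quasi-likelihood fit with group as its factor covered all 8 libraries, with Benjamini-Hochberg adjustment over the tested genes. CPM were computed on TMM-scaled library sizes and divided by kb of merged exon where stated. SEs are the log2 fold change over the square root of its F statistic, and 95% intervals use the t distribution. The procedure was also run on simulated counts in which few genes changed, as many up as down. That setting differs from these data, where many genes were called, so it does not probe the choice of scaling. Log2 CPM for likeness used a prior count of 2.

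The members and lists were chosen with earlier results of these data known. Genes beside the members were named by rule. Over the junction lists these were the 5 highest and 5 lowest passing genes per comparison with a mean of at least 1 CPM. Of each marker list it was the most abundant gene, and for the highest and the lowest member the 3 genes most like it. Outside this rule, Elp5 was named for its overlap with Cldn7. Tjp3, Epcam, Pdpn, Hopx, Cyp2f2, Tppp3 and Grhl3 were named with their values known. Alternatives were DESeq2 1.42.0, scaling by library totals, RLE or upper quartile, no filter or at least 10 counts in every library, the compared groups only, a fold change over 2 with an unadjusted or adjusted p under 0.05 (the thresholds of the study's methods, there used with DESeq2, applied here to the edgeR fit), and leaving out each mouse or LPS mice 6 and 7. The labels and a figure legend of the study give 2 sequenced mice for the dual treatment, which were used, while its methods speak of 3 per group. Protein, imaging and serum measurements were not analysed here.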

Additional observations from a re-analysis of the deposited data

How the results depend on the processing

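Over the alternatives, 349 of the members' log2 fold changes kept direction and side of the threshold, 27 no longer passed, 18 passed newly and 11 changed sign; for the other named genes 429 kept both, 33 no longer passed and 3 changed sign. The lost calls were those of Dsc2, Cldn8, Cldn34c1, Lsr and Magi1, and by the fold rule alone those of Nectin1 and Nectin3. Directions turned for Tjp3 and Dsc2 among the other named genes, and for members in comparisons where they had not passed. In LPS against control these were Cldn3 (-0.17 to 0.017 leaving out 1 mouse), Cldn18 (-0.40 to 0.061) and Ocln (-0.15 to 0.081), which without LPS mice 6 and 7 were at 0.10, 0.27 and 0.13. In dual treatment against control they were Cldn1 (-0.34 to 0.31, with -0.09 without control mouse 4) and Cldn4 (-0.59 to 0.77), and beside the members Tjp3 with library totals (0.011). In dual treatment against LPS they were Tjp1 (-0.087 to 0.37) and, with library totals, Cldn3 (0.11). Dsc2 turned without LPS mice 6 and 7, to -2.17 and 1.20.

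The number of members lower in LPS than in control was 1, and was 4 with library totals and 0 where a fold change over 2 was asked, with unadjusted or adjusted p. Lower in dual treatment than in control were 2, but 4 by DESeq2, 4 with the compared groups only, 3 with no filter, 0 with the fold rule by either p, and 0 to 4 leaving out 1 mouse. Lower in dual treatment than in LPS were 5, but 3 with library totals, 3 with the fold rule by either p, 6 by DESeq2, 6 with RLE factors, 7 without LPS mice 6 and 7, and 5 to 6 leaving out 1 mouse; 1 was higher with library totals. The fold rule drops smaller changes by its construction; the cause of the other differences was not tested. Library totals moved the share of called genes that were higher from 49.0% to 35.6% in LPS against control and from 53.6% to 71.0% in dual treatment against LPS.

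No paired analysis was possible because the mouse numbers do not pair animals across groups. With 2 dual-treated mice, leaving out 1 leaves a lone animal that is assumed to vary like the other groups, and the same holds for LPS mouse 1 without LPS mice 6 and 7. Cldn4, with 79 to 390 counts per library, had the largest SE of the members in each comparison.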
